A study of Mus musculus with 3 samples.

Results

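Glycolysis enzymes were followed in neural retina of Rp1 knockout mice. The members were the probe sets to which the array annotation gives exactly 1 gene symbol, that symbol being Hk1, Hk2, Aldoc, Tpi1, Pgk1, Pgam1, Eno2, Pkm, Ldha or Ldhb. All 10 genes were on the array, with 13 probe sets in all, out of 8251 genes and 12422 probe sets that are not controls. A probe set is a group of short probes for 1 transcript, read as 1 signal, and Hk2, Pkm and Ldhb had 2 each.

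RNA was measured on 3 one-colour Affymetrix arrays, of the mouse U74Av2 type by their titles. The 3 samples form 1 group of Rp1-/- animals at postnatal day 21, on a background mixed from 129/SvEv and C57BL/6. Per the labels, an RNA sample pooled the neural retinas of 3 to 4 mice, taken between 1 and 2 pm, so no value belongs to a single animal. No other genotype, age or treatment was analysed here, so nothing below is an effect of the Rp1 deletion and no test between conditions was made. Rp1 itself was not analysed here, so the genotype rests on the labels. Replicates 1, 2 and 3 name the pools in an arbitrary order.

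Glycolysis splits glucose into pyruvate and gains ATP in doing so. The retina is known for making much lactate from glucose even when oxygen is plentiful, and photoreceptors do a large part of this. Hexokinases (Hk1, Hk2) phosphorylate glucose and hold it in the cell. Aldolase C (Aldoc) splits the sugar bisphosphate and Tpi1 interconverts its products. Pgk1, Pgam1 and enolase 2 (Eno2, the neuronal enolase) then carry the intermediates to phosphoenolpyruvate. Pyruvate kinase (Pkm) makes pyruvate. Lactate dehydrogenase, built from A subunits (Ldha) and B subunits (Ldhb), interconverts pyruvate and lactate.

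Promoter sequences are shown for a lactate dehydrogenase pair and for the other members with at least 2 copies of ACGTG, the letters at the core of many sites of hypoxia-inducible factor, a transcription factor known to act on glycolysis genes. They are the 250 bases before the annotated start, from RefSeq on GRCm38.p6, read 5′ to 3′ on the gene's strand, with ACGTG on either strand in capitals. All 10 members matched the promoter table, and where a gene had several starts the most upstream one was taken. The windows lie at chr7:46845554-46845803 on the plus strand for Ldha, chr6:142507958-142508207 on the minus strand for Ldhb, chrX:106186850-106187099 on the plus strand for Pgk1 and chr6:82774455-82774704 on the minus strand for Hk2.
Ldha: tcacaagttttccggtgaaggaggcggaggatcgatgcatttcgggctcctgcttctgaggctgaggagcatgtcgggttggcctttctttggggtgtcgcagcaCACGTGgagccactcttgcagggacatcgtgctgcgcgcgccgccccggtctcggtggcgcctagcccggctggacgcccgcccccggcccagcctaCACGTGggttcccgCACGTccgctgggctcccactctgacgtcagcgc
Ldhb: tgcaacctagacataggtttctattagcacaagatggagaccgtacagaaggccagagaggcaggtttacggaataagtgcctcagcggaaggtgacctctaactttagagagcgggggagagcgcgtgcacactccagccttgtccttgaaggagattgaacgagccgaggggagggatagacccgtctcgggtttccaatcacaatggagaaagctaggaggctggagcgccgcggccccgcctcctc
Pgk1: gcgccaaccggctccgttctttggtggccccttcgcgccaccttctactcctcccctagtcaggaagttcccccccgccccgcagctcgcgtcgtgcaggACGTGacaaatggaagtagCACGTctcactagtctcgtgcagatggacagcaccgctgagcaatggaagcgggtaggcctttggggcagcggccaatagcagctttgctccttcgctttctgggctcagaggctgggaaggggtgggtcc
Hk2: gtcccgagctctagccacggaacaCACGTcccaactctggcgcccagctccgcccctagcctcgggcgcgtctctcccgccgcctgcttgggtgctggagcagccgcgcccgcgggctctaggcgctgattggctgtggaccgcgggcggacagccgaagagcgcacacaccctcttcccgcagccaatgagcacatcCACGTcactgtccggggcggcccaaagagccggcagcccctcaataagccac

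ACGTG was found in 4 of the 10 member windows (Ldha, Pgk1, Hk2 and Pgam1) and in 16.6% of the 32851 promoter windows in the table. The shares over all windows count every start listed for a gene, whereas a member has only its most upstream start, so the sets are unlike. Ldha held 5 copies, counting both strands, because its 2 copies of the palindrome CACGTG each hold ACGTG on both strands. CACGTG was in no other member window and in 6.0% of all windows. Pgk1 and Hk2 held 2 copies of ACGTG each, Pgam1 held 1, and Ldhb held none in this window. The related GCGTG was in 3 member windows (Aldoc, Pgam1, Ldhb) and in 28.2% of all windows, and TAATCC, letters bound by the photoreceptor factor Crx, was in that of Aldoc alone and in 6.3% of all windows. These matches describe letters only, and the motifs were chosen with results of these data known.

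Signals are linear array intensities. They were scaled so that the 2% trimmed mean is the same on the 3 arrays, and that mean already lay between 495.4 and 497.4 as deposited. A signal was called above background when it passed a limit set on its array, the 95th percentile of 19 controls that match bacterial or yeast RNA, which was 160.2, 80.7 and 107.1 in replicates 1, 2 and 3. The ratio of 3′ to 5′ signal, a measure of RNA integrity, was 0.90, 0.93 and 0.85 for the Gapdh controls in replicates 1, 2 and 3. For the Actb controls it was 1.31 in replicate 1 and 1.47 in replicate 3, and replicate 2 was the highest. Rod markers, which should define this tissue, were above background for all 6 measured genes. With 3 arrays the precision is limited. Means are given ± SD over the 3 pools (n = 3), and this SD may hold technical as well as biological spread. Probe sets respond differently to the same amount of RNA, so levels are compared between pools and never between genes. The highest and lowest pools named below are on the trimmed-mean scale unless another is given.

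All 10 enzymes were above background on all 3 arrays, where 60.7% of all genes were. By probe set, 11 of the 13 were above background on all 3 arrays, where 54.4% of all probe sets were. The exceptions were second probe sets of Hk2 and Ldhb, which were below the limit on every array. With 1 probe set taken per gene, each enzyme had its highest signal in replicate 2, 10 of 10 genes, while 33.0% of all genes above background did. After quantile normalization the enzymes' count was 2 of 10, beside 34.3% of all genes. On the trimmed-mean scale with a gene's probe sets averaged, the count was 7 of 10, beside 28.7% of all genes. The second Pkm probe set was highest in replicate 3. Replicate 2 was also highest for many other bright genes, since 67.2% of the 536 genes with a mean signal of 2000 or more had their maximum there. Of the 10 enzymes, 9 had a mean of 2000 or more.

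**Figure D1:**
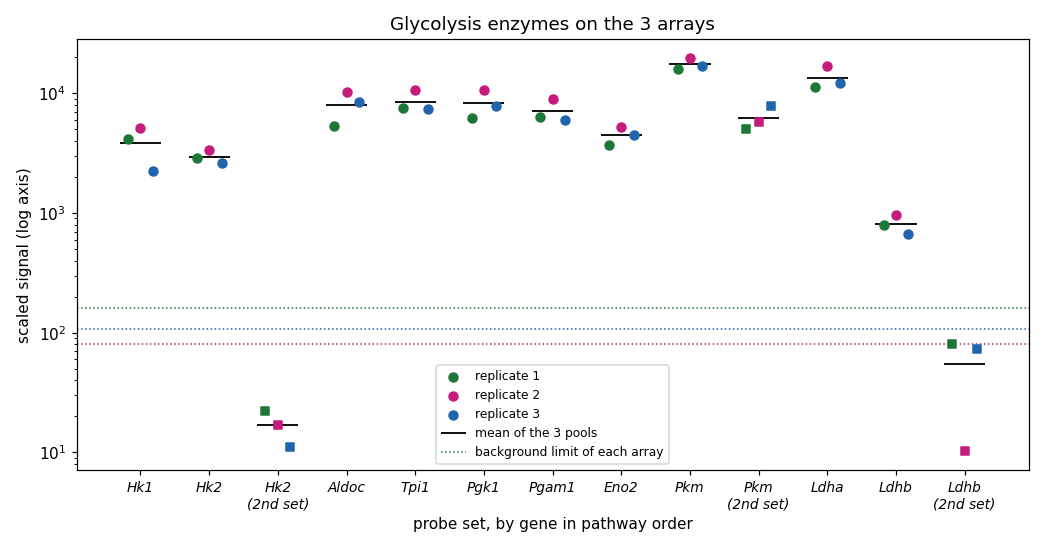
Scaled signal (log axis) of every member probe set in the 3 pools, with genes in pathway order, circles for the probe set used for the gene, squares for its second one, black bars for means of the 3 pools and dotted lines for each array's background limit. All circles are highest in replicate 2 on this scale. After quantile normalization 2 of 10 are, beside 34.3% of all genes above background. The second probe sets of Hk2 and Ldhb lie below the limits.

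The hexokinases differed in how far the pools spread. Hk1, the hexokinase of most tissues (probe set 99335_at), gave 4129.6, 5113.6 and 2236.0 in replicates 1, 2 and 3, a mean of 3826 ± 1463. Replicate 3 was the low pool, and the highest signal was 2.29 times the lowest. Its log2 range of 1.19 was the only one of 1 or more among the enzymes, against 28.3% of all genes above background with such a range. Of genes with a mean signal of 2000 or more, 15.9% had such a range. When array medians were set equal, 4 of the 10 enzymes reached it, beside 34.2% of all genes. The enzymes' share thus lay below that of all genes on the first scale and above it on the second. The log2 value of Hk1 in replicate 3 lay 1.04 below the mean of the other pools (deviation -1.04), and 2.38% of all genes above background had an equal or lower deviation there.

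Hk2, an inducible hexokinase that photoreceptors are known to express (94375_at), gave 2871.1, 3336.9 and 2599.1 in replicates 1, 2 and 3, a mean of 2936 ± 373. The 3 pools lay close together, with a log2 range of 0.36. Within each array, the log2 ratio of Hk2 to Hk1 lay -0.22, -0.31 and 0.52 from its mean in replicates 1, 2 and 3, so replicate 3 alone stood on the Hk2 side. This ratio does not depend on a scaling factor of the array. Its range of 0.83 over the arrays fell to 0.09 without replicate 3, and the log2 range of Hk1 to 0.31. The second Hk2 probe set (161313_at) gave 22.2, 16.9 and 11.2, all below background, so it gave no second reading of the gene. Hk1 has 1 probe set, so its low value in replicate 3 has no reading from another probe set.

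The genes whose 3 values ran most like those of Hk1 were Ccs, Psmb6 and Fuca1, by Euclidean distance between log2 values centred on each gene's mean over the 3 arrays. The distances were 0.057, 0.071 and 0.073. Of 4996 genes compared, 4 lay within 0.1. Psmb6, a proteasome subunit, gave 1375.9, 1826.9 and 771.1 in replicates 1, 2 and 3. These genes were chosen for their likeness to Hk1, so their low value in replicate 3 is no separate observation.

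Aldolase C and the triose enzyme had different lowest pools on the trimmed-mean scale, but the same one when array medians were set equal. Aldoc (160546_at), known as a marker of glia and of certain neurons, gave 5322.3, 10282.1 and 8454.1 in replicates 1, 2 and 3, a mean of 8020 ± 2508. Replicate 1 was the low pool, at -0.81 from the log2 mean of the others, and the log2 range of 0.95 was the next widest after Hk1. Tpi1 (99566_at) gave 7578.2, 10571.6 and 7381.7, a mean of 8511 ± 1788. Replicates 1 and 3 lay close together, and replicate 2 lay 0.50 above their log2 mean.

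Pgk1, the first ATP-forming enzyme of the pathway (93346_at), gave 6256.4, 10723.1 and 7819.3 in replicates 1, 2 and 3, a mean of 8266 ± 2267. Like Aldoc it was lowest in replicate 1 and highest in replicate 2. Pgam1, the mutase of the next step (160091_at), gave 6339.7, 8908.6 and 5996.7, a mean of 7082 ± 1591. Eno2 (99045_at) gave 3697.1, 5242.4 and 4484.5, a mean of 4475 ± 773. Pgam1 was lowest in replicate 3 (replicate 1 when array medians were set equal) and Eno2 in replicate 1 (replicate 3 after quantile normalization), and the log2 range was 0.57 for Pgam1 and 0.50 for Eno2.

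Pkm was read by 2 probe sets that did not run together. The first (96066_s_at) gave 15793.7, 19510.5 and 16841.7 in replicates 1, 2 and 3, a mean of 17382 ± 1916. The second (162032_f_at) gave 5061.7, 5805.5 and 7793.4, a mean of 6220 ± 1412. Both were lowest in replicate 1 (the first in replicate 2 after quantile normalization), but the first was highest in replicate 2 and the second in replicate 3. The log2 deviation of replicate 3 was -0.06 at the first and 0.52 at the second. Pkm was the only enzyme with 2 probe sets above background on all 3 arrays, so in 0 of 1 genes did probe sets share their highest pool. In this array's naming, the endings _s_ and _f_ mark probes that may be shared by several transcripts or related genes. Which of the M1 and M2 splice forms of Pkm each probe set reads was not analysed here.

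The lactate dehydrogenase subunits both had their maximum in replicate 2, which for Ldha moved to replicate 1 after quantile normalization. Ldha (96072_at), the subunit known to favour lactate formation, gave 11182.1, 16992.1 and 12199.6 in replicates 1, 2 and 3, a mean of 13458 ± 3103. Ldhb (101990_at), the subunit known from heart, gave 797.4, 967.0 and 667.5, a mean of 811 ± 150. Replicate 1 was lowest for Ldha (replicate 2 after quantile normalization) and replicate 3 for Ldhb. The log2 ratio of Ldha to Ldhb within an array moved by 0.38 in all, and lay -0.24, 0.09 and 0.15 from its mean in replicates 1, 2 and 3. That range was 0.06 without replicate 1. The second Ldhb probe set (161945_at) gave 80.8, 10.3 and 72.8, below background on all arrays. The 2 genes also differed in the promoter letters printed above, where Ldha held ACGTG but not GCGTG, and Ldhb held GCGTG but not ACGTG. A link of these letters to the signals was not tested.

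The median log2 SD of the 10 genes was 0.30, beside 0.36 over all genes above background, and the median log2 range was 0.55, beside 0.69. Over the genes with a mean signal of 2000 or more, these medians were 0.34 and 0.64, closer to those of the enzymes. The order of the SDs turned when array medians were set equal, to 0.50 for the enzymes beside 0.42 over all genes. The coefficient of variation over pools lay between 11.0% for Pkm and 38.2% for Hk1 with 1 probe set per gene, and was 22.7% at the second Pkm probe set. Replicate 2 had a median deviation of 0.52 over the enzymes, beside -0.01 over all genes above background. The enzymes' medians were -0.21 in replicate 1 and also -0.21 in replicate 3, beside 0.06 and -0.04 over all genes, and quantile normalization turned the sign in replicate 1, to 0.21. Replicate 1 was the lowest pool for 5 of the 10 enzymes (Aldoc, Pgk1, Eno2, Pkm and Ldha), beside 36.0% of all genes above background. Among genes with a mean signal of 2000 or more, 67.4% were lowest there, a larger share than that of the enzymes. The enzymes' count was 8 when array medians were set equal, beside 54.2% of all genes, and 2 after quantile normalization, beside 39.8%. Replicate 3 was the lowest for the other 5 (Hk1, Hk2, Tpi1, Pgam1 and Ldhb), beside 31.7%. With equal array medians, Hk2, Tpi1 and Pgam1 were lowest in replicate 1 instead. After quantile normalization these 5 stayed lowest in replicate 3, and Eno2 was lowest there too. In replicate 3, 8 of the 10 deviations were below 0 under each of these scalings, beside 53.7% of all genes on the trimmed-mean scale, 51.9% with equal medians and 52.4% after quantile normalization.

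**Figure D2:**
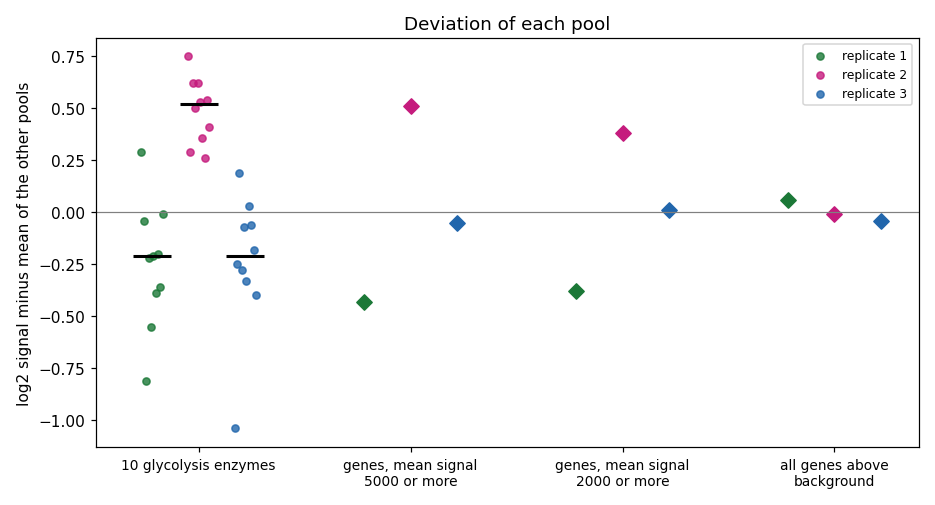
Log2 signal of each pool minus the mean of the other pools (y axis) for the 10 enzymes, with a point per gene and a black bar at the median, and as medians (diamonds) for genes of mean signal 5000 or more, 2000 or more, and all genes above background. All enzymes lie above 0 in replicate 2 on the trimmed-mean scale, where quantile normalization brings their median to 0.11, and the median of genes of 5000 or more, 0.51, lies close to that of the enzymes, 0.52.

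The maximum in replicate 2 went with signal level across the whole array. Of genes above background, 18.6% had their maximum in replicate 2 where the mean signal was under 500, 46.9% from 1000 to 2000, and 87.1% of the 132 genes at 5000 or more. Quantile normalization gives the arrays 1 common distribution of signals. Replicate 2 was then highest for 2 of the 10 enzymes, Pgk1 and Ldhb, beside 34.3% of all genes above background. Replicate 1 was highest for 7 enzymes, and replicate 3 for 1, Aldoc. The shares of all genes highest in replicates 1 and 3 on this scale were not computed, so these counts have nothing to be set beside. The log2 range was then 0.20 for Ldha and 0.10 for Eno2. Hk1 was still low in replicate 3, with a deviation of -1.13 and a range of 1.26. The shared maximum in replicate 2 thus depended on the scaling, and the low Hk1 signal in replicate 3 did not under these scalings.

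**Figure D3:**
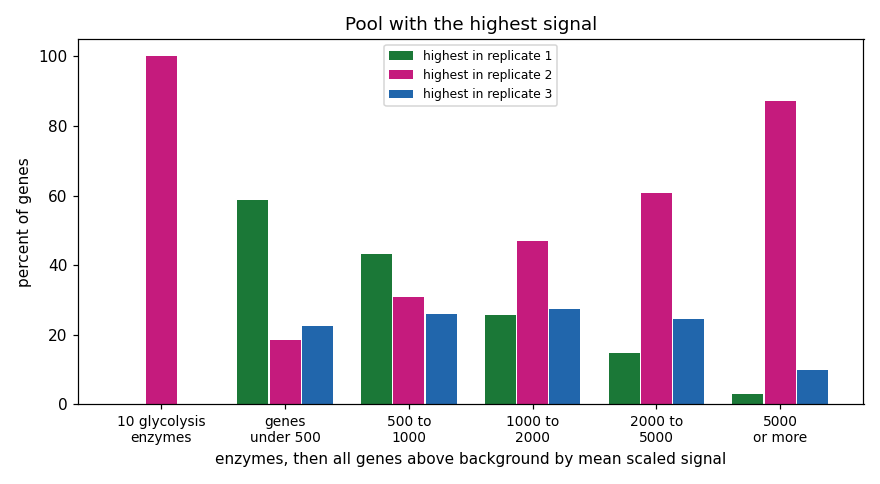
Percent of genes with their highest signal in each pool (y axis, bars for replicates 1, 2 and 3), for the 10 enzymes and then for all genes above background in classes of mean scaled signal. All 10 enzymes have their maximum in replicate 2 on this scale. After quantile normalization 2 of 10 do, beside 34.3% of all genes above background. On the scale shown, the share over all genes is 18.6% under 500 and 87.1% at 5000 or more.

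Of 15 further glycolysis genes, 10 had a probe set of their own and 6 of these were above background on all 3 arrays, beside 60.7% of all genes. The others were not analysed here. Of the 6, 3 were highest in replicate 2 on the trimmed-mean scale, beside 33.0% of all genes above background. The count was 5 when array medians were set equal, beside 55.2%, and 2 after quantile normalization, beside 34.3%. Pfkl, Pfkm and Pfkp encode the phosphofructokinase subunits, which catalyse a main control step. Pfkl gave 4678.7, 4099.5 and 2887.2 in replicates 1, 2 and 3, and Pfkm gave 1477.7, 2400.0 and 1521.8. Pfkp had 2 probe sets above background that ran apart, with 2300.0, 2062.7 and 1206.3 at the first (97833_at) and 1344.7, 2767.1 and 2296.3 at the second (97834_g_at). Replicate 3 was lowest for Pfkl and at the first Pfkp probe set, as for Hk1, while replicate 1 was lowest for Pfkm (replicate 3 after quantile normalization) and at the second Pfkp probe set.

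Aldoa, the widespread aldolase, gave 19503.6, 19673.1 and 12199.9 in replicates 1, 2 and 3 at 160090_f_at, lowest in replicate 3, where Aldoc was not. The log2 ratio of Aldoc to Aldoa within an array lay -0.76, 0.18 and 0.58 from its mean in replicates 1, 2 and 3. Its range over arrays, 1.34, exceeded those of Hk2 to Hk1 (0.83) and of Ldha to Ldhb (0.38), but was 0.41 without replicate 1. A second Aldoa probe set (161889_f_at) gave 8163.3, 7843.1 and 6842.9, also lowest in replicate 3, but in replicate 2 after quantile normalization. Bpgm, the bisphosphoglycerate mutase known from red blood cells, gave 793.2, 1460.2 and 878.4, and Eno3, the muscle enolase, gave 781.6, 732.6 and 912.1. Pgk2 and Ldhc, known from testis, Pgam2, known from muscle, and Pklr, known from liver, were not above background on all 3 arrays at the probe set used. The control probe sets of Gapdh, which links the aldolase and Pgk1 steps, gave 28678.9, 42573.3 and 29551.0 at the 3′ end, also highest in replicate 2.

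Of 14 regulators and carriers listed, 10 were measured and 8 of these passed the background limit on each array, beside 60.7% of all genes. Slc2a1, the main glucose transporter of the retina, gave 1236.1, 1905.5 and 1517.1 in replicates 1, 2 and 3, in the same order as Pgk1 and Aldoc. Slc2a3, the neuronal glucose transporter, gave 434.3, 380.2 and 479.2 at 93804_at and 257.6, 440.6 and 376.9 at 92292_at, with different pools highest. Slc16a1, a lactate transporter, gave 296.4, 258.5 and 181.9. Pfkfb2, whose product makes an activator of phosphofructokinase, gave 307.4, 400.3 and 365.7, and Pdk1, which inhibits pyruvate dehydrogenase, gave 615.2, 383.8 and 355.0. Hif1a, a subunit of hypoxia-inducible factor, gave 12239.0, 19543.7 and 14827.6 at 1 probe set and 12049.6, 19487.2 and 14940.6 at the other, and both carry the ending _f_. Its highest pool was replicate 2, and replicate 1 after quantile normalization.

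Markers of other cells moved between the pools beside the enzymes. The summed signal of the 10 enzymes was 63967, 91648 and 68680 in replicates 1, 2 and 3. The 6 rod markers summed to 95222, 141126 and 97138, and the 6 Müller glia markers to 12444, 19740 and 17124, both sums with replicate 2 highest. Single genes of these lists ran otherwise. Of the rod markers, Cnga1 was highest in replicate 1 and Pde6a in replicate 3. Of the Müller glia markers, Glul and Vim were highest in replicate 1 and Car14 in replicate 3. After quantile normalization the rod sums were 110843, 111598 and 109633, and the enzymes' sums 79033, 73628 and 69088, with replicate 1 highest. Lens markers were bright although the tissue is labelled neural retina, with all 6 above background on all arrays and sums of 128003, 189614 and 133816. Cryaa, an alpha crystallin, alone gave 39560.8, 62167.0 and 46056.4. Crygb differed little between replicates 1 and 2, at 23919.2 and 24286.7. Bfsp1 was the only lens marker highest in replicate 1, at 1122.5, 781.6 and 448.4 in replicates 1, 2 and 3. The 5 red blood cell markers, 2 of them above background on all arrays and 1 on none, summed to 5533, 31750 and 8294. This spread was wider than that of the enzymes. Most of each sum was Hba-a1, at 4075.5, 25577.3 and 6660.5. Slc4a1 was highest in replicate 3, and Epb42, the marker above background on no array, in replicate 1. The 5 markers of pigmented cells, 2 of them above background on all arrays, summed to 1422, 12031 and 7835. Their sum was lowest in replicate 1, as were Aldoc, Pgk1 and 67.4% of genes with a mean signal of 2000 or more. The 7 skeletal muscle markers, 3 of them above background on all arrays, summed to 21181, 21254 and 13884, and this list holds Aldoa and Eno3. Most of these sums was the widespread Aldoa, at 19503.6, 19673.1 and 12199.9, so they say little of muscle. Mylpf, Tnnt3 and Pgam2 were highest in replicate 1, Ckm in replicate 2, and Acta1 and Eno3 in replicate 3. The 3 cone markers summed to 5497, 10104 and 7324, and the 5 of connective tissue and smooth muscle, 3 of them above background on all arrays, to 1547, 3148 and 3818. The part of these cells, and of RNA quality, in the enzyme values was not tested. In pooled tissue, fewer cells of a type and less RNA per cell cannot be told apart.

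**Figure D4:**
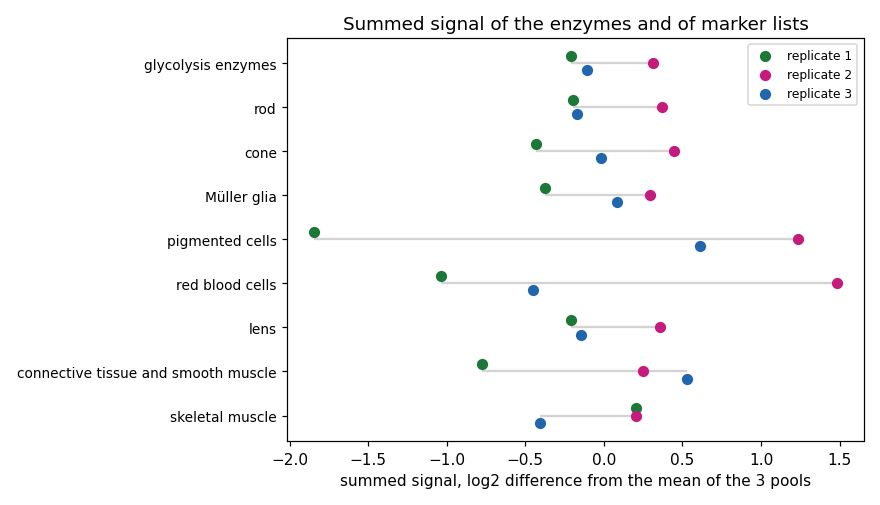
Summed scaled signal of the 10 enzymes and of marker lists in each pool, as the log2 difference from the mean of the 3 pools (x axis). The enzymes run from 63967 to 91648, a narrower spread than the red blood cell and pigmented cell markers, and each list except connective tissue and smooth muscle has its maximum in replicate 2 on the trimmed-mean scale. After quantile normalization the enzymes, lens and skeletal muscle lists no longer do. Most of the skeletal muscle sum is Aldoa, the widespread aldolase.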

How the data were processed

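Total RNA of 3 pools of Rp1-/- retina was measured on 3 arrays. The deposited table gives a linear intensity for each of 12488 probe sets, 66 of them controls, on every array. The software, background correction and scaling behind the authors' intensities are not given in the sources used here.

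Arrays were scaled to a common 2% trimmed mean over probe sets that are not controls (factors 0.998, 1.00 and 1.00). Before log2, low signals were raised to their array's 5th percentile. Symbols came from the platform annotation, in which 10833 probe sets had 1 symbol, 396 several and 1193 none. For genes with several probe sets a plain _at suffix was preferred, then the highest mean. A deviation is the log2 value of a pool minus the mean of the other pools. With 1 group there were no p-values. Named genes were all members, every other listed glycolysis gene above background on all 3 arrays, and the first 6 of the listed regulators and carriers above background. The members, lists and promoter motifs were chosen with earlier results of these data known. The computation was tested on simulated data. Other scalings, limits, floors, pseudocounts, thresholds and probe set rules were tried, as was leaving out each pool. The count of enzymes highest in replicate 2, its alternatives and the promoters shown were chosen after seeing the data. Python 3.11.15, numpy 2.4.6 and pandas 2.3.3 were used.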

Additional observations from a re-analysis of the deposited data

How the results depend on the processing

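The counts above background (11 probe sets, 10 enzymes and 6 other glycolysis genes) stayed within 1.5 times of these values under each limit, scaling and omission tried. Against the trimmed-mean scale, the median log2 signal of all probe sets shifted by -0.22, 0.23 and 0.02 in replicates 1, 2 and 3 when medians were set equal, and by -0.23, 0.22 and 0.02 with quantile normalization. The number of enzymes with a log2 range of 1 or more was 1, beside 28.3% of all genes above background and 15.9% of genes with a mean signal of 2000 or more. It was 4 after scaling to a common median (34.2% of all genes). It was also 4 with a threshold of 1.5-fold (60.8%), and 2 with the mean of all probe sets (30.7%). With a pool left out, and so fewer samples by construction, it lay between 0 and 1. It was 1 without replicate 1 (5.73% of all genes), and 0 without replicate 2 (17.8%) and without replicate 3 (22%). The median log2 SD of 0.30 became 0.50 after scaling to a common median (0.42 over all genes) and lay between 0.14 and 0.34 when a pool was left out. The median deviation became -0.56 in replicate 1 and 0.84 in replicate 2 after scaling to a common median, and 0.21 and 0.11 after quantile normalization. The following settings were chosen after seeing the data. Replicate 2 was highest for 10 enzymes after scaling to a common median (55.2% of all genes) and as deposited (32.7%). The count was 7 with the mean of all probe sets (28.7%). It was 2 after quantile normalization (34.3%) and 2 with arrays scaled to the Actb control (5.91%). The cause of these changes was not tested. The count of enzymes whose probe sets share their highest pool lay between 0 and 1 when a pool was left out, and 1 was reached for Pkm without replicate 2 and without replicate 3. The log2 range of Hk1 was 0.31 without replicate 3, so that value rests on this pool. That of Ldhb was 1.34 with the mean of all probe sets, which takes in the one below background, and the range of the Ldha to Ldhb ratio was then 1.95. No paired analysis was possible because the samples form 1 group.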

Other observations

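Among lactate carriers, the genes below were chosen after their values were seen. Bsg, which encodes basigin, a partner protein that carries lactate transporters to the cell surface, gave 6076.5, 10906.3 and 6525.4 in replicates 1, 2 and 3, with its maximum in replicate 2. It was also highest there after quantile normalization, with a deviation of 0.36. Slc16a8, which encodes a lactate transporter known from the retinal pigment epithelium, gave 953.8, 371.5 and 240.3, a 3.97-fold range with replicate 1 highest. The summed markers of pigmented cells were lowest in replicate 1, at 1422, against 12031 and 7835 in replicates 2 and 3. After quantile normalization Slc16a8 was still highest in replicate 1, with a deviation of 1.59. Slc16a8 has 1 probe set, so there is no second reading of it on the array.

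Pfkfb3, which encodes a regulator of phosphofructokinase, had 2 probe sets that opposed each other. One (103577_at) gave 608.9, 53.4 and 69.1 in replicates 1, 2 and 3, above background in replicate 1 alone, and the other (160641_at) gave 101.5, 126.5 and 343.7, below background in replicate 1. Ldhc, the lactate dehydrogenase of testis, was likewise above background in replicate 1 alone, at 293.3 against 11.5 and 12.4 in replicates 2 and 3, and so was Pgk2, the phosphoglycerate kinase of testis, at 192.6 against 49.7 and 6.6. Each of Ldhc and Pgk2 has 1 probe set. Both signals in replicate 1 lay below the median signal of that array, 295.6. Of genes above background with a mean signal under 500, 58.8% were highest in replicate 1. The share of all genes above background in replicate 1 alone was not computed, so expression of these genes cannot be read from these values.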
